A study of Mus musculus with 2 samples.

Results

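Non-cycling natural killer (NK) cells from B16 tumours, a transplanted mouse melanoma, made up 263 of 2611 single-cell profiles of CD45+ leukocytes. The members were chosen by measured values, the raw UMI counts per cell (a UMI, or unique molecular identifier, is a random tag by which copies of one captured RNA are counted as 1). A member had at least 2 UMIs over the NK receptor genes Ncr1, Klrb1c and Klre1 and at most 1 over Cd3d, Cd3e and Cd3g. It had 0 for Cd8b1, at most 3 over C1qa, C1qb and C1qc, under 10 over H2-Aa, H2-Ab1 and H2-Eb1, and under 3 over the cell cycle genes Mki67, Top2a, Birc5 and Ube2c. Levels of these 17 genes are therefore no result.

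Leukocytes were sorted on day 14 after tumour inoculation from female C57BL/6 mice aged 5 weeks and captured by 3' droplet sequencing, with 2600 cells loaded per library. There were 2 libraries, 1 per genotype, and the labels do not say how many mice or tumours each one holds. The control mice were Foxp3Cre-YFP, in which Foxp3, the gene that defines regulatory T (Treg) cells, drives Cre recombinase fused to a yellow fluorescent reporter. The other mice were Nrp1L/L Foxp3Cre-YFP, which carry the same Cre and in addition floxed Nrp1, the gene of the co-receptor neuropilin-1, so Cre acts on Nrp1 only where Foxp3 is or was expressed. NK cells were 75 of 1310 control barcodes and 188 of 1301 Nrp1L/L barcodes. Genotype, mice and library cannot be told apart with 1 library each, so sizes of differences are given with no test, and all intervals are 95% intervals that cover counting error only.

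NK cells are innate lymphocytes that kill without prior sensitisation, by releasing granules that hold perforin and granzymes onto a target. Activating receptors that signal through adaptors such as Tyrobp are set against inhibitory receptors that read MHC class I on the target. Activated NK cells also secrete interferon-gamma and chemokines that draw in other leukocytes, and interleukin-2, interleukin-15 and interferons tune their granule content.

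The 75 control NK cells held 458579 UMIs (median 4964 UMIs and 1312 genes per cell) and the 188 Nrp1L/L cells held 855160 (median 4072.5 UMIs and 1137 genes). Over all barcodes the medians were 8079.5 and 5334 UMIs. The libraries shared 3 barcode sequences, none of them an NK member in both. A gate sum of 2, the lowest allowed for the NK receptor genes, was found in 1 control and 7 Nrp1L/L members, and 11 and 9 barcodes that met every other condition had a sum of 1. The median gate sum was 11 in control and 10 in Nrp1L/L members. For the CD3 genes, 10 and 38 members had the highest sum allowed of 1, and 5 and 6 barcodes just outside had 2.

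The label was checked on genes outside the rule. Eomes, the transcription factor that sets NK cells apart from other innate lymphocytes, stood at 188 CPM in control and 242 CPM in Nrp1L/L NK cells (UMIs of the gene per 1000000 UMIs of the class), against 26.6 and 35.2 CPM in non-cycling CD8 T cells of the same libraries. It had a UMI in 34 of 75 and 82 of 188 NK cells. Those CD8 T cells, the nearest cytotoxic lymphocytes, numbered 101 and 214 with medians of 5549 and 5646.5 UMIs, and 9.9% and 8.88% of them had an Eomes UMI. Tyrobp stood at 3223 and 3597 CPM, against 108 and 59.7 CPM in CD8 T cells. Fcer1g, the Fc receptor gamma chain, stood at 2425 and 2988 CPM, against 177 and 138 CPM. All 3 genes were thus several times higher in the members than in the CD8 T cells. In a joint clustering, 90.7% of control and 96.3% of Nrp1L/L members lay in a single cluster. The genes of the rule were not left out of that clustering, so it is no independent check of the label. Of the cluster's barcodes, 14 of 84 in control and 39 of 226 in Nrp1L/L lay outside the NK gate, cycling NK cells counted as inside.

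Markers of some other cell types were near 0, while the lists of T cell genes and of monocyte and macrophage genes were not. Bcl11b, a T cell transcription factor, was at 0 UMIs in NK cells of both libraries, as was Foxp3, and Cd8a had 0 and 5 UMIs. The 12 T cell genes in the files, 4 of them part of the rule, summed to 124 and 346 UMIs, most of them Cd28 with 85 and 235, and none of the 3 with at least 20 UMIs differed by 1.5-fold with an interval clear of 0. Genes of type 2 and type 3 innate lymphoid cells summed to 1 and 2 UMIs, and those of B cells, neutrophils, basophils and melanoma cells to at most 3 UMIs a library. The list of 16 monocyte and macrophage genes summed to 1773 CPM in control and 827 CPM in Nrp1L/L NK cells. In UMIs the list summed to 813 and 707. Its members Csf1r and Adgre1 had 7 and 0, and 1 and 1, UMIs, and Ms4a7 was at 0 in both, so most of the sum lay in other members. A single control cell carried 214 of the 271 control UMIs of Lyz2, a lysozyme of myeloid cells. Within the limits of the rule, 48 of 75 control and 160 of 188 Nrp1L/L members had a C1q sum of 0. For the MHC class II sum these numbers were 34 and 132.

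Nrp1 itself had 2 UMIs in control and 1 in Nrp1L/L NK cells, too few to compare. The labels do not say which part of Nrp1 is floxed, so a 3' tag of it would check nothing here. Foxp3, which drives the Cre, was at 0 in both, against a detection floor of 3 counts that equals 6.54 CPM in control and 3.51 CPM in Nrp1L/L NK cells.

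NK cells held a larger share of the Nrp1L/L library. They were 5.73% of control barcodes (Clopper-Pearson 4.53 to 7.12) and 14.5% of Nrp1L/L barcodes (12.6 to 16.5), a difference of 8.73 percentage points (Newcombe 6.44 to 11). Cycling NK cells, which pass the same gate but have 3 or more cell cycle UMIs, numbered 7 and 11. Non-cycling CD8 T cells stood at 7.71% (6.32 to 9.29) and 16.4% (14.5 to 18.6). These are shares of captured barcodes, so a fall in other leukocytes and a gain in NK cells cannot be told apart.

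The series title sets interferon-gamma from CD8 T cells as the question, and NK cells are the other classic source. Ifng (ENSMUSG00000055170, chr10:118441046-118445892, plus strand, GRCm38) had 72 UMIs in control and 233 in Nrp1L/L NK cells. That is 157 CPM (123 to 198) and 272 CPM (239 to 310), 1.74-fold higher in the Nrp1L/L cells, with a log2 ratio of 0.80 (0.41 to 1.20). Cells with an Ifng UMI were 24 of 75 (32%) and 72 of 188 (38.3%), against 1.03% and 6.35% of the barcodes outside the NK, CD8 T and other CD3+ classes. In non-cycling CD8 T cells of the same libraries Ifng stood at 105 and 660 CPM, a log2 ratio of 2.65. Cycling CD8 T cells stood at 260 and 438 CPM. The level in NK cells was thus above that of non-cycling CD8 T cells in the control library and below it in the Nrp1L/L library. It was below that of cycling CD8 T cells in both.

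NK cells contributed a nearly equal part of all Ifng UMIs in both libraries. They held 72 of 1052 control Ifng UMIs, 6.84% (5.39 to 8.54), and 233 of 3181 Nrp1L/L Ifng UMIs, 7.32% (6.44 to 8.29). Non-cycling CD8 T cells held 6.75% and 27.1%, and cycling CD8 T cells 26.3% and 8.52%. Cells that carry both CD3 and NK receptor transcripts, which the NK gate leaves out, held 42.1% and 31%. The NK share depends on where that border is drawn. With every cell thinned to 2500 UMIs before gating, 14 control and 15 Nrp1L/L cells from outside the original gate entered it, and the NK shares of Ifng became 22.6% and 13.5%, with an Ifng log2 ratio in NK cells of 0.36. The ratio was 0.44 with levels thinned and cells gated as before, and 0.29 with no C1q UMI and at most 2 MHC class II UMIs allowed; Ifng was not called in any of these 3 settings.

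**Figure D1:**
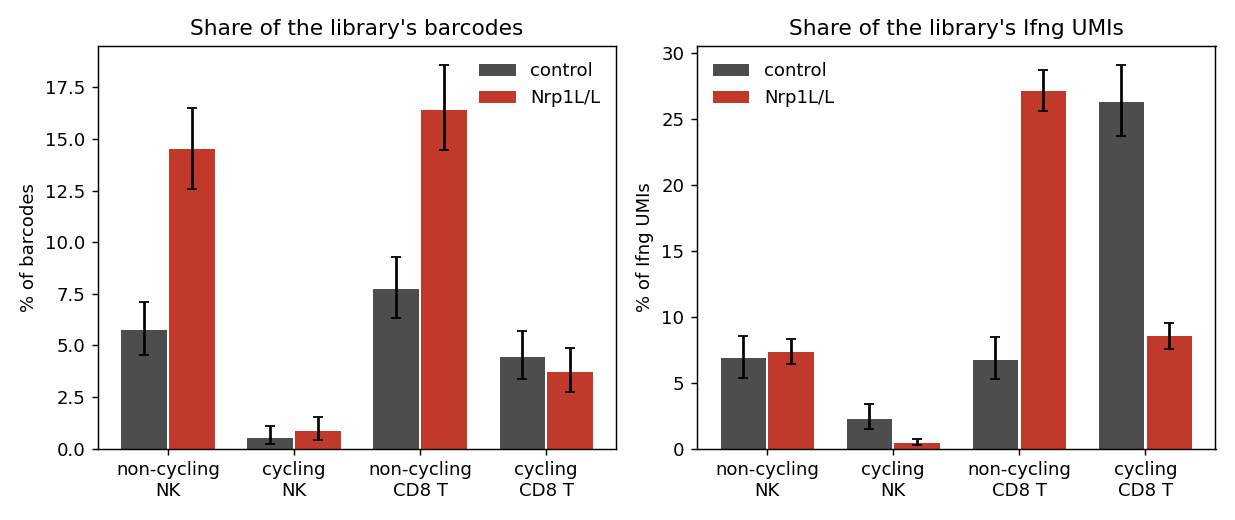
Bars give, for the control (grey) and Nrp1L/L (red) library, the percentage of barcodes (left) and of Ifng UMIs (right) that fell in each of 4 gated classes, with 95% Clopper-Pearson intervals for counting error. Non-cycling NK cells were 5.73% and 14.5% of barcodes, and held 6.84% and 7.32% of Ifng UMIs.

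Across the NK transcriptome, a gene was called where the 2 libraries differed by at least 1.5-fold and the exact binomial interval of the log2 ratio (Nrp1L/L over control) lay on one side of 0. Of 5422 genes with at least 20 UMIs, 655 (12.1%) were called higher and 333 (6.14%) lower in Nrp1L/L NK cells, and the median log2 ratio was 0.10. Higher calls were 66.3% of all calls, and 55.4% (525 higher and 423 lower) with TMM scaling or 52.8% (502 and 449) with median-of-ratios scaling. In some genes a few cells carried most UMIs. With the 2 control and 5 Nrp1L/L cells richest in each gene left out, 3705 genes remained measurable, 309 (8.34%) were called higher and 326 (8.8%) lower, and the median was -0.01.

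Among the granule genes that arm the killing machinery, the granzymes A and B stood far higher in Nrp1L/L NK cells and perforin did not. Of 20 measured granule genes, 5 were called higher (Gzma, Gzmb, Gzmm, Fasl and Serpinb9) and 1 lower (Prf1), with a median log2 ratio of 0.19. These shares were 25% and 5%, beside 12.1% and 6.14% of all genes measured, and with the richest cells left out 4 of 17 were called higher and 3 lower (Prf1, Gzmc and Ctsc). Gzma (ENSMUSG00000023132, chr13:113093825-113100981, minus strand), the most abundant granzyme, had 2506 and 10944 UMIs. It stood at 5465 CPM in control and 12798 CPM in Nrp1L/L NK cells, 2.34-fold higher (log2 1.23, 1.16 to 1.29). Gzmb (ENSMUSG00000015437, chr14:56258838-56262260, minus strand), which cleaves caspases in the target, stood at 1524 and 4075 CPM, 2.67-fold higher (log2 1.42, 1.3 to 1.54). Both were also called with the richest cells left out, at 1.31 and 1.37.

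In CD8 T cells Gzma was low, at 78.3 and 287 CPM, while Gzmb was not, at 1376 and 3835 CPM. The death ligand Fasl stood at 194 and 299 CPM (log2 0.63), and Serpinb9, which shields the killer cell from its own granzyme B, at 401 and 621 CPM (log2 0.63); neither was called with TMM or median-of-ratios scaling, which left 3 higher and 2 lower in the list. Prf1, which encodes the pore-forming perforin, stood lower, at 80.7 and 45.6 CPM (log2 -0.82, -1.51 to -0.13). Its 37 and 39 UMIs are few, and the call was not made when cells were thinned to 2500 UMIs each (-0.59) or kept within the NK cluster (-0.54). Nkg7, a granule membrane protein at 3801 and 5231 CPM, differed by less than 1.5-fold (log2 0.46).

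The difference in Gzma and Gzmb was spread over many cells. With every cell thinned to 2500 UMIs, the median NK cell had 12 Gzma UMIs in control and 30 in the Nrp1L/L library, with quartiles of 2 and 27 and of 11.75 and 46. For Gzmb the medians were 2 and 4 UMIs, and 61.3% and 74.5% of thinned cells had at least 1 UMI (72% and 78.7% before thinning). Gzmc, a granzyme of strongly stimulated killer cells, was distributed otherwise. Its 269 and 559 UMIs gave a log2 ratio of 0.16, but 442 of the Nrp1L/L UMIs came from a single cell. It had a UMI in 23 of 75 control and 15 of 188 Nrp1L/L NK cells, and its direction depended on the setting. It was called lower with the richest cells left out (-4.19) and when cells were thinned and then gated (-2.21), and called higher with a CD3 sum of 0 (1.39). In CD8 T cells Gzmc stood at 248 and 3.82 CPM.

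**Figure D2:**
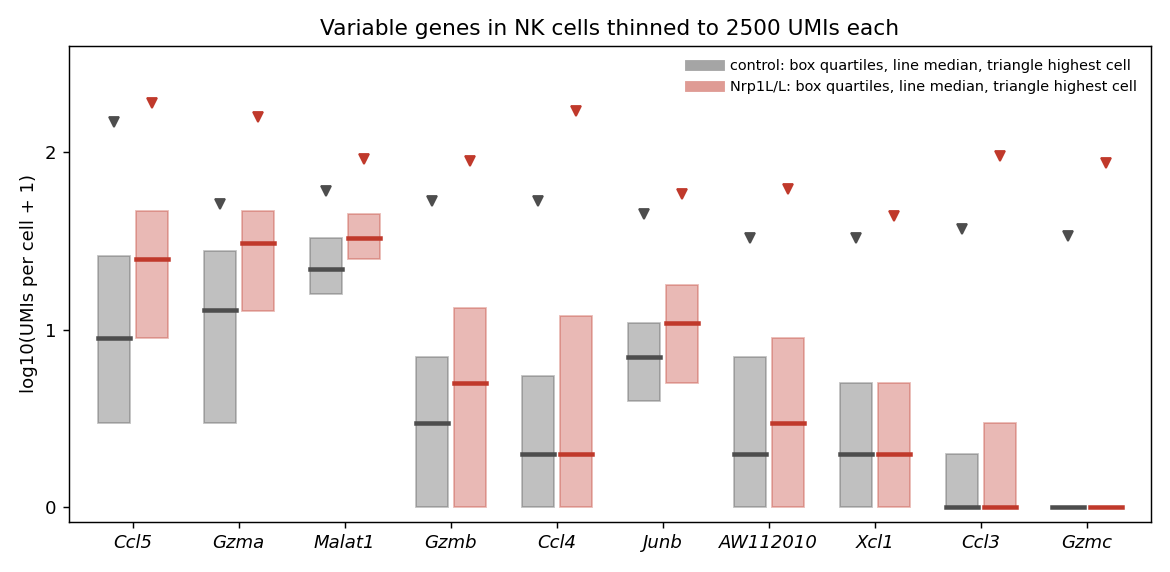
For 10 of the most variable genes, boxes span the quartiles of UMIs per NK cell after thinning to 2500 UMIs (y axis, log10 of UMIs + 1), lines mark the median and triangles the highest cell, in 75 control (grey) and 188 Nrp1L/L (red) cells. Gzma and Ccl5 medians were 12 and 8 UMIs in control and 30 and 24 in Nrp1L/L cells, while Gzmc sits at 0 with single high cells.

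Among secreted factors, 4 of 9 measured genes were called higher (Ifng, Ccl5, Ccl4 and Ccl3; 44.4%, beside 12.1% of all genes) and 0 lower, with a median log2 ratio of 0.44. With the richest cells left out, 3 were called higher and Ltb lower, with a median of 0.29. Ccl5, which attracts T cells and dendritic cells, stood at 6719 and 12449 CPM (log2 0.89, 0.83 to 0.95). Ccl4 and Ccl3, chemokines released by activated killer cells, stood at 1891 and 4004 CPM (log2 1.08) and at 789 and 1291 CPM (log2 0.71). The Ccl3 call was not made with the richest cells left out (0.45). Xcl1, which attracts cross-presenting dendritic cells, stood at 1099 and 1496 CPM (log2 0.44), and its mean per thinned cell was 3.45 and 3.41 UMIs. Lymphotoxin beta (Ltb) stood at 626 and 441 CPM (log2 -0.51). Tnf had 5 and 9 UMIs. In CD8 T cells of the same libraries Ccl5 stood at 7318 and 19905 CPM (log2 1.44), and the list median was 0.51. Mean UMIs per thinned CD8 T cell were 2.19 and 8.69 for Ccl4, 0.653 and 3.72 for Ccl3, and 1.12 and 0.346 for Xcl1.

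The chemokine and granzyme genes were also those that varied most from cell to cell. By variance over mean in thinned cells, the 12 leading genes of 1521 ranked were Ccl5, Ccl4, Gzmc, Ccl3, Gzma, Gzmb, AW112010, Xcl1, Malat1, Junb, Tmsb4x and Ly6c2. Ccl5 had values of 51.5 in control and 39.8 in Nrp1L/L cells, against medians over all ranked genes of 1.49 and 1.83. As a description over 75 and 188 cells of 1 library each, Spearman's rho between Ccl5 and Gzma was 0.53 in both libraries, between Ccl4 and Ccl3 0.65 and 0.47, and between Gzma and Gzmb 0.38 and 0.46. Xcl1 ran weakly against Gzma, at -0.21 and -0.27.

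**Figure D3:**
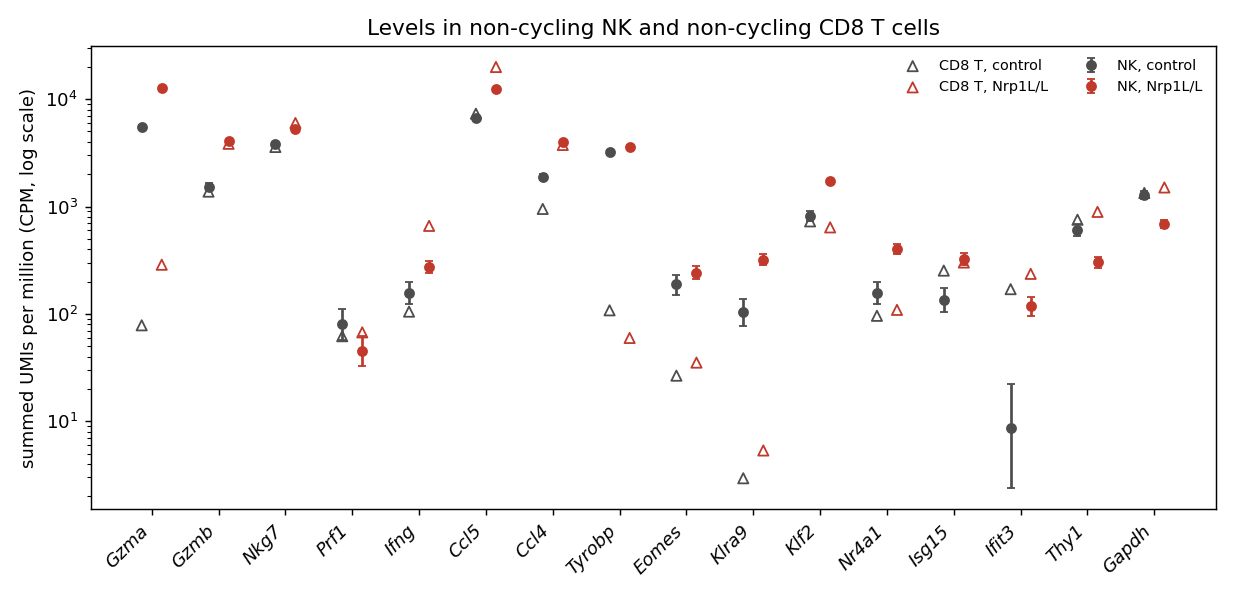
Filled points give the CPM (log scale) of 16 genes in control (grey) and Nrp1L/L (red) non-cycling NK cells with 95% Poisson intervals, and open triangles the CPM in non-cycling CD8 T cells of the same library. Gzma, Tyrobp, Eomes and Klra9 lie far above the CD8 T values in both libraries, and Thy1 and Gapdh were lower in Nrp1L/L NK cells but not in Nrp1L/L CD8 T cells.

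Many genes that respond to interferon stood higher in Nrp1L/L NK cells, and those of the type I response had the highest median of the gene lists. Type I interferons act on genes through the interferon-stimulated response element, and interferon-gamma through gamma-activated sites. Of 30 measured type I response genes, 14 were called higher (46.7%, beside 12.1% of all genes measured) and 0 lower, with a median log2 ratio of 1.08. Of 26 measured interferon-gamma response genes, 11 were called higher (42.3%) and 0 lower, with a median of 0.60, which was 0.34 with levels thinned to 2500 UMIs a cell. With the richest cells left out, the type I list had 12 called higher and 1 lower of 24 (median 0.89), and the interferon-gamma list 7 and 0 of 23 (median 0.52). Among the 12 were Ifit3 and Rsad2, whose control UMIs lay in 2 cells each and were all left out. With median-of-ratios scaling the type I list had 14 higher and 1 lower and the interferon-gamma list 7 and 0. In CD8 T cells of the same libraries the medians were 0.47 and 0.54.

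The promoters of 4 of these genes are shown because their factors' binding letters can be read in them (RefSeq, GRCm38.p6, 5' to 3' along the gene's strand, ending upstream of the start). Capitals mark matches on either strand to GAAANNGAA, the repeated core of the interferon-stimulated response element, in Isg15 (chr4:156200822-156200921, minus strand) and Ifit3 (chr19:34583349-34583460, plus strand). In Irf1 (chr11:53769899-53769998, plus strand) they mark TTCNNNGAA, the core of the gamma-activated site, and in Gbp7 (chr3:142530205-142530317, plus strand) they mark both motifs.
Isg15: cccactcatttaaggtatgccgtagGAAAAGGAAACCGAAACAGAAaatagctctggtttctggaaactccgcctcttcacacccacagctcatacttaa
Ifit3: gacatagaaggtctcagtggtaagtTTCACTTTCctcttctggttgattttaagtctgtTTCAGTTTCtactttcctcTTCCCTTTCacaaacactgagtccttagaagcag
Irf1: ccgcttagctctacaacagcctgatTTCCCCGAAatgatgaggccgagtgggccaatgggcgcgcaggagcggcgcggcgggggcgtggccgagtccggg
Gbp7: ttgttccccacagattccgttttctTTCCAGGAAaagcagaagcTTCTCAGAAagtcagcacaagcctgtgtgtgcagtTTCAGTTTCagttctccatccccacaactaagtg
Isg15 and Ifit3 each hold 3 matches to the first motif, which overlap one another in Isg15. In the 250 bases before the start, GAAANNGAA was found in 16 of 35 promoters of type I response genes (45.7%) and in 7.13% of all 32851 promoters. TTCNNNGAA was found in 11 of 26 promoters of interferon-gamma response genes (42.3%), in 11.4% of the type I promoters and in 7.02% of all promoters. The interferon-gamma promoters also held GAAANNGAA, in 53.8%. The searches covered both strands, and all promoters were windows of the same 250 bases. A match describes these letters and is no evidence of binding in these cells.

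In the values, Ifit3 (ENSMUSG00000074896, chr19:34583531-34588731, plus strand), an antiviral effector, stood out most. It had 4 UMIs in 2 control cells and 101 UMIs in 21 Nrp1L/L cells, 8.72 and 118 CPM, with a log2 ratio of 3.76 (2.36 to 5.66). Isg15 (chr4:156199424-156200818, minus strand), a ubiquitin-like modifier, stood at 135 and 325 CPM (log2 1.27, 0.86 to 1.69). Irf7, the regulator that amplifies the type I response, stood at 142 and 371 CPM (log2 1.39). Zbp1, a sensor of unusual nucleic acids, stood at 225 and 491 CPM (log2 1.13), and Slfn2, a schlafen needed for lymphocyte quiescence, at 135 and 384 CPM (2.84-fold).

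Further type I genes called higher were Usp18, the brake on the receptor (log2 1.41), Xaf1 (1.28), Rtp4 (1.10), Trim30a (1.06), Rsad2 (1.83), Ifit1 (1.86), Isg20 (1.48) and Ifi35 (0.87). Ifit2 had 0 control UMIs and 21 in 8 Nrp1L/L cells, a log2 ratio of at least 1.91 against the floor of 3 counts over the control cells. Members that differed little were Ly6e, at 1234 and 1293 CPM, and Ifi203, at 89.4 and 81.9 CPM. Ifi27l2a was at 220 and 151 CPM (log2 -0.55), called lower with TMM or median-of-ratios scaling. Ifit3 shares sequence with its near copy Ifit3b, so its reads may be split. In CD8 T cells, Ifit3 stood at 170 and 236 CPM, so control NK cells were the lowest of the 4 groups for this gene. Admitting the 11 control and 9 Nrp1L/L barcodes with a gate sum of 1 brought the type I list median to 0.56, and Isg15 (0.39) and Rsad2 (0.26) were then not called.

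Among interferon-gamma response genes, Irf1, the master regulator of the response, stood at 85 and 165 CPM (log2 0.96, 0.43 to 1.51), and Irf8 at 918 and 1424 CPM (0.63). The guanylate-binding protein genes Gbp7 and Gbp8 had log2 ratios of 1.26 and 1.74, and the GTPase gene Irgm1 had 1.80. Irf8 and Gbp4 (0.60) were not called with TMM or median-of-ratios scaling. Iigp1 had 1 and 30 UMIs, of which 16 lay in 1 cell. The chemokine gene Cxcl10 was at 98.1 and 102 CPM (log2 0.05), with 35 of 45 control UMIs in 1 cell and 27 Nrp1L/L cells with a UMI against 4 control cells. Socs1, the feedback inhibitor, stood at 148 and 122 CPM (log2 -0.29).

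The class I antigen presentation genes that NK cells themselves carry included some higher calls and no lower ones. Of 23 measured genes, 5 were called higher (Tap1, Tap2, H2-Q6, H2-T22 and Nlrc5; 21.7%, beside 12.1% of all genes) and 0 lower, with a median of 0.30 beside 0.10. Nlrc5 was not called with median-of-ratios scaling, and with the richest cells left out 3 of 21 were called (Tap1, H2-Q6 and H2-T22). The classical genes H2-K1 and H2-D1 stood at 3014 and 4010 CPM (log2 0.41) and at 5718 and 7012 CPM (0.29). The peptide transporter gene Tap1 stood at 100 and 171 CPM (log2 0.77). The immunoproteasome subunits Psmb8 (-0.11) and Psmb9 (-0.01) lay near 0. Reads of the H2-Q genes may be shared between near-identical copies.

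**Figure D4:**
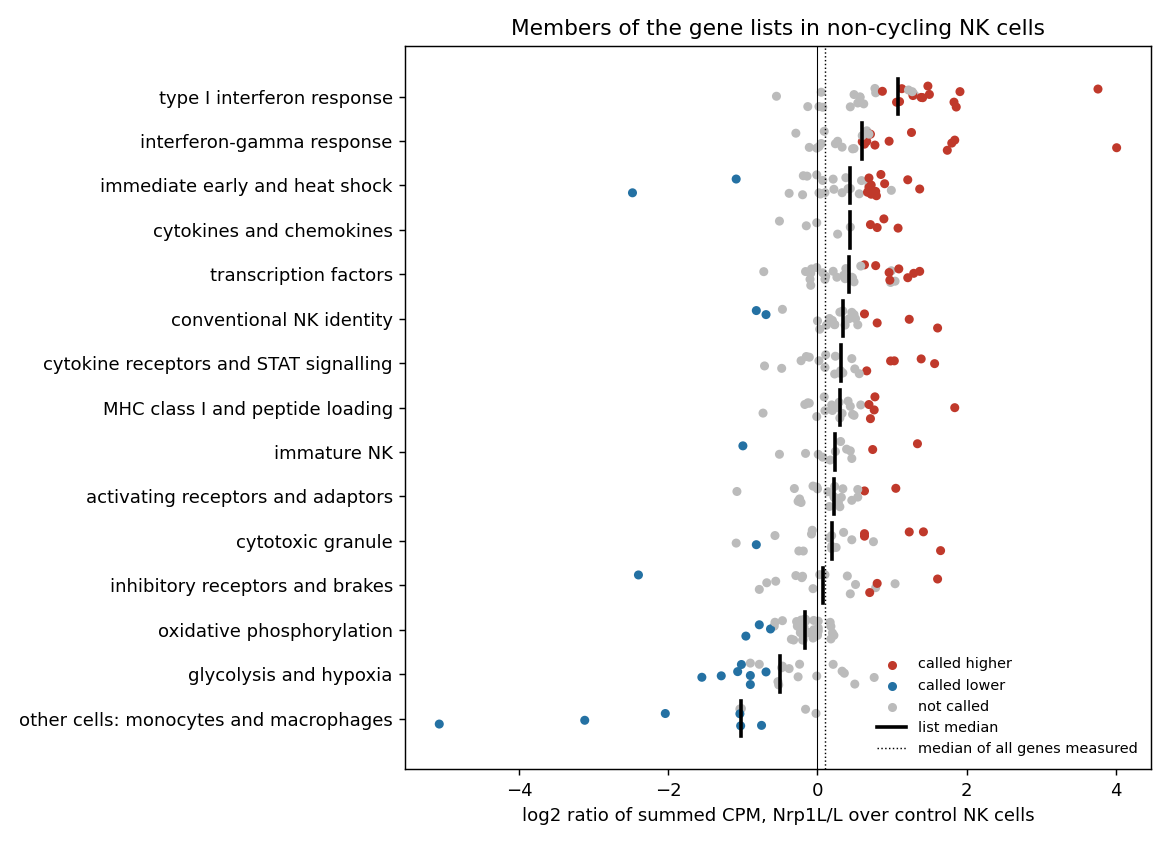
Each point is a gene with at least 20 UMIs, placed by its log2 ratio of CPM in Nrp1L/L over control NK cells and coloured red (called higher), blue (called lower) or grey, with black bars for the list medians and a dotted line for all genes measured (0.10). Genes at 0 control UMIs are drawn at the bound set by 3 counts. The type I interferon list has a median of 1.08, glycolysis -0.50, and the monocyte and macrophage marker list -1.03.

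Immediate early and heat shock genes, which are switched on within minutes of receptor signalling or tissue handling, were called higher in 12 of 33 measured cases (36.4%, beside 12.1% of all genes) and lower in 2 (6.06%, beside 6.14%), with a median of 0.44. The median was 0.24 with levels thinned and 0.23 with a gate sum of 1 admitted. The part of tissue handling was not tested. Nr4a1, a reporter of antigen and activating receptor signals, stood at 157 and 406 CPM (log2 1.37, 1.00 to 1.76). Junb stood at 2741 and 4426 CPM (0.69), Ier2 at 550 and 1027 CPM (0.90) and the phosphatase gene Dusp2 at 515 and 930 CPM (0.85). Fos (0.33) and Jun (0.02) were not called, but Jun was called lower (-0.71) with a gate sum of 1 admitted. The genes called lower were Ier3, with 15 and 5 UMIs, and the heat shock gene Hspa1a, at 140 and 65.5 CPM.

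Of 30 measured transcription factors of NK and T cells, 8 were called higher (26.7%, beside 12.1% of all genes) and 0 lower, with a median of 0.42. Klf2, which favours egress and restrains NK cell proliferation, stood at 813 and 1726 CPM (log2 1.09, 0.92 to 1.25). Zeb2, a factor of terminal maturation, stood at 28.3 and 65.5 CPM (1.21). Ikzf3 (1.29) and Runx1 (0.78, not called with TMM scaling) were also called. Rora (0.97) had a UMI in 9 and 12 cells only, and its value with the richest cells left out was -0.31. Eomes (log2 0.37, 0.00 to 0.75) and its relative Tbx21 (0.47, -0.21 to 1.18), the pair that directs the NK programme, were not called. Id2, needed by all innate lymphocytes, stood at 1339 and 1432 CPM.

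Receptors of the Klra family, which read MHC class I and are expressed by subsets of cells, differed by member. Klra9 stood at 105 and 320 CPM (log2 1.61, 1.17 to 2.09), with a UMI in 21 of 75 and 65 of 188 cells. Klra7 stood at 205 and 357 CPM (0.80). Both encode inhibitory receptors in C57BL/6 mice. Klra8 and Klra4, which encode activating receptors, stood at 434 CPM in both libraries and at 558 and 655 CPM (0.23). Counted over 11 Klra genes, 34.7% of control and 25% of Nrp1L/L NK cells had no UMI of the family, and 46.7% and 48.9% had UMIs of at least 2 members. These genes are near copies of each other, so reads may be divided among them.

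Of the other receptors, 2 of 22 measured activating receptor and adaptor genes were called higher (9.09%, beside 12.1% of all genes) and 0 lower, with a median of 0.22. They were Sh2d1b1, an adaptor of the SLAM receptors (log2 0.63, not called with TMM scaling), and Vav1, a signalling exchange factor (1.05). Klrk1, which encodes the stress ligand receptor NKG2D, stood at 883 and 1280 CPM (0.54). Of 18 inhibitory receptor and brake genes, Klra9, Klra7 and Socs3 (0.70) were called higher and Pdcd1, which encodes PD-1, lower. These shares were 16.7% and 5.56%, beside 12.1% and 6.14% of all genes measured. Pdcd1 had 17 and 6 UMIs, and Lag3 had 25 and 29. Klrc1, the inhibitory partner of Klrd1, stood at 349 and 461 CPM (0.40).

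Cytokine receptor and signalling genes were called higher in 5 of 21 cases (among them Stat3, Il18rap, Il10ra and Tgfbr2; 23.8%, beside 12.1% of all genes) and lower in 0, with a median of 0.31. With the richest cells left out, 3 of 20 were called higher and Il12rb1 lower. Stat3 stood at 140 and 284 CPM (log2 1.03). Il2rb, the chain through which NK cells receive interleukin-2 and interleukin-15, stood at 443 and 560 CPM (0.34). Il2ra, which completes the high-affinity interleukin-2 receptor, had 13 UMIs in control and 2 in Nrp1L/L NK cells, below the minimum of 20.

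Of the maturation genes, some stood higher and some lower in Nrp1L/L NK cells. Cd27, carried by earlier and cytokine-producing NK cells, stood at 137 and 347 CPM (log2 1.34, 0.94 to 1.75), and Cd7 at 360 and 602 CPM (0.74). Thy1, another gene of less mature NK cells, stood at 606 and 303 CPM, 2-fold lower (log2 -1, -1.25 to -0.75), with a UMI in 51 of 75 and 85 of 188 cells. Klrg1 and Itgam, marks of late maturation, had 23 and 25 and 13 and 16 UMIs, and S1pr5 had 4 and 6. Over the lists, 2 of 13 early genes were called higher (15.4%) and 1 lower (7.69%), with a median of 0.24. Of 12 late genes, 3 were called higher (25%) and 0 lower, with a median of -0.12. Over all genes measured these shares were 12.1% and 6.14%. The late gene Irf8 was not called with TMM or median-of-ratios scaling. For type 1 innate lymphoid cells and tissue residency, Cxcr6 had 10 and 9 UMIs in NK cells, against 524 and 1007 CPM in CD8 T cells. Tmem176b and Tmem176a were the 2 of 11 measured genes of that list called higher (18.2%, beside 12.1% of all genes). Neither was called with the richest cells left out (0.45 and -0.44).

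Glycolysis was the list with most lower calls by number, though not by share. Of 22 measured glycolysis and hypoxia genes, 7 were called lower (Gapdh, Tpi1, Aldoa, Pgk1, Mif, Pdk1 and Ndrg1; 31.8%, beside 6.14% of all genes) and 0 higher, with a median of -0.50. The median was smaller with levels thinned to 2500 UMIs a cell (-0.22), with cells thinned and then gated (-0.33) and as a mean of each cell's CPM (-0.29), and Pgk1 was not called in any of these 3 settings. Gapdh stood at 1280 and 685 CPM (log2 -0.90, -1.07 to -0.73), Tpi1 at 517 and 247 CPM (-1.07), Aldoa at 1659 and 1031 CPM (-0.69) and Pgk1 at 140 and 74.8 CPM (-0.90). Mif, a cytokine gene induced by hypoxia, stood at 811 and 399 CPM (-1.02). In CD8 T cells the same libraries gave log2 ratios of 0.17 for Gapdh, 0.15 for Aldoa and -0.16 for Tpi1, and a list median of 0.06.

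With TMM scaling Eno1 and Higd1a were called lower too. The monocyte and macrophage marker list differed in the same direction, with 6 of 10 measured genes called lower (60%, beside 6.14% of all genes, median -1.03). All 4 measured dendritic cell genes were called lower too (100%, median -1.18), and 3 of them belong to the rule. The glycolysis median was -0.54 in the members with no C1q UMI and at most 2 MHC class II UMIs, and -0.53 without the Lyz2-rich control cell. Of 38 measured oxidative phosphorylation genes, 3 were called lower (Cox6b1, Ndufv3 and Atp5l) and 0 higher, with a median of -0.17. The share called lower, 7.89%, was near the 6.14% of all genes measured. Of 16 cholesterol synthesis genes, Fdps was called lower (log2 -0.74; 6.25%, beside 6.14% of all genes) and 0 higher, with a median of 0.10, and with the richest cells left out Fdps and Pmvk were called lower among 6 measured, with a median of -0.62.

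Among all genes outside the rule, the 12 called higher with the interval farthest from 0 were Ifit3, Ddx31, Melk, Nrip1, Ccna2, Serpine2, Prpsap2, Gng12, Trim30d, Csnk1e, Rfc3 and Srpk2. Several rest on single cells: all 33 Melk UMIs and all 30 Ccna2 UMIs lay in 1 Nrp1L/L cell each, as did 26 of 33 Ddx31 UMIs. Gng12, a G protein subunit, had 3 UMIs in 3 control cells and 55 UMIs in 24 Nrp1L/L cells (log2 3.30, 1.67 to 5.62). Srpk2, a kinase of splicing factors, had 7 UMIs in 4 and 79 UMIs in 34 cells (log2 2.6). With the richest cells left out, the 12 leading genes were Ifit3, Srpk2, Nisch, Rsad2, Spty2d1, Gng12, Dtx3l, Isg15, Cxcl10, Gzma, Gzmb and Lgals9. Of these, Ifit3, Rsad2, Isg15, Cxcl10 and Dtx3l are known as interferon-stimulated genes. Ifit3, Rsad2 and Dtx3l each had a UMI in only 2 control cells. Leaving out 2 control cells therefore set their control counts to 0 by construction, so their place here is no check of them. Lgals9, which encodes the lectin galectin-9, stood at 37.1 and 153 CPM (log2 2.05, 1.31 to 2.87) with a UMI in 12 and 65 cells.

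Among the 12 leading lower genes were Chil3, Cxcl2, Cd14, Lyz2, Fuz, Spi1, Arl8b, Trmt10c, Primpol, Aldoc and Rad52. Chil3, Cxcl2, Cd14, Lyz2 and Spi1 are genes of monocytes, macrophages and granulocytes. Of the control UMIs, 1 cell per gene held 131 of 134 for Chil3, 67 of 98 for Cxcl2, 26 of 36 for Cd14 and 19 of 21 for Spi1. Cxcl2 stood lower in CD8 T cells of the same libraries too, at 186 and 4.59 CPM, beside 214 and 12.9 CPM in NK cells, and barcodes outside the gated lymphocyte classes and other CD3+ cells were 59% of the control and 24.2% of the Nrp1L/L library. The part of transcripts from myeloid cells in these calls was not tested. With the richest cells left out, the leading lower genes were Gzmc, Kcmf1, Cxcl2, Sh2b1, Brd7, Ccl7, Cd74, Pno1, Coq9, Tmem261, Capg and Rcn2. Capg, an actin-capping protein gene, stood at 303 and 116 CPM (log2 -1.39) in NK cells, and at 365 and 368 CPM in CD8 T cells.

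**Figure D5:**
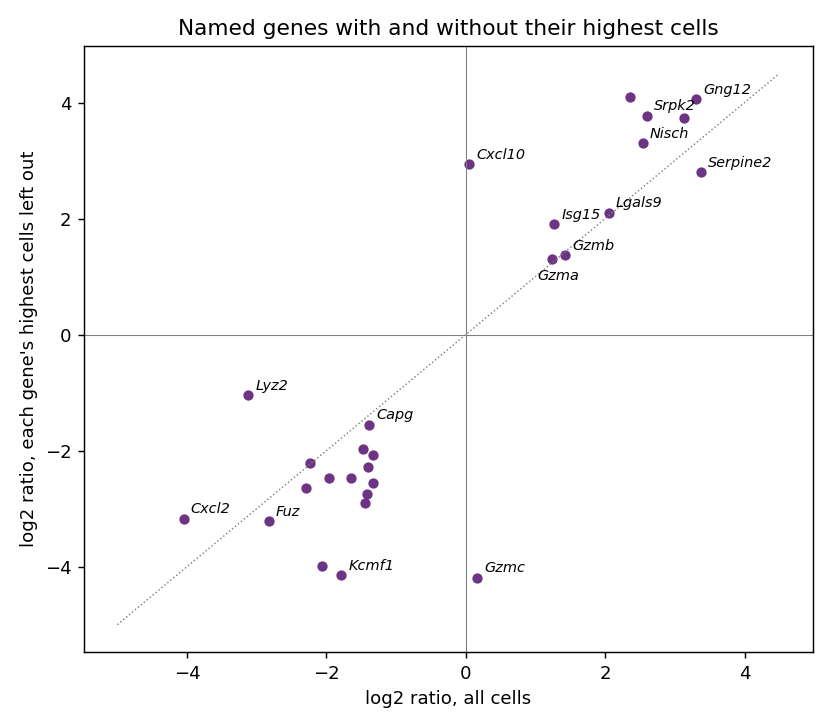
Each of 28 named genes is placed by its log2 ratio over all NK cells (x axis) and with the 2 control and 5 Nrp1L/L cells richest in it left out (y axis), with equality dotted. Gzma, Gzmb and Lgals9 lie near the line, whereas Gzmc goes from 0.16 to -4.19 and Cxcl10 from 0.05 to 2.94.

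Compared with CD8 T cells within each library, as a description of gated classes, NK cells stood highest for Klrb1a, Klra4, Klrb1b, Klra8, Klrb1f, Gzma, Tyrobp, Klra7, Klri2 and Car2. All but Gzma, Tyrobp and Car2 are lectin-like receptors of NK cells. Car2, carbonic anhydrase 2, stood at 632 and 801 CPM in NK cells and at 35.4 and 23.7 CPM in CD8 T cells, log2 ratios of 4.16 and 5.08. CD8 T cells stood highest over NK cells for Bcl11b, Cd8a, Cd6, Gzmk, Tnfrsf4, Dapl1, Cd5, Cxcr6, Gm8369 and Klk8. Cd8a helped to choose the CD8 T cells, so its place here was set by their gate and is no result. Gzmk, a granzyme of T cells, had 0 and 2 UMIs in NK cells, against 94.5 and 165 CPM in CD8 T cells.

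The most abundant NK transcripts outside ribosomal protein and mitochondrial genes were, by mean CPM of the 2 libraries, Tmsb4x, Malat1, Ccl5, Gzma, Tmsb10, Eef1a1, B2m, H2-D1, Pfn1, Fau, Nkg7, Junb, H2-K1, Ubb and Actb. Of these 15, Malat1, a nuclear non-coding RNA at 7754 and 12571 CPM (log2 0.70), Ccl5, Gzma and Junb were called higher and none lower. Tmsb4x, Eef1a1, B2m, Pfn1 and Actb lay within 0.12 of 0 on the log2 scale.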

How the data were processed

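Raw UMI counts per gene and barcode were used as deposited, made by the authors with Cell Ranger 1.3 on mm10, per the submitters' processing notes. Each matrix holds 27998 genes. The members and gene lists were chosen with earlier results of these data known. Counts were summed over each gated class and given as CPM with exact Poisson intervals. Log2 ratios have exact conditional binomial intervals. Clustering used scanpy 1.11.5 (Leiden resolution 1, 30 components), TMM edgeR 4.0.16, and intervals scipy 1.17.1. Scrublet scored few doublets (0.611% and 0.231% of barcodes), so an alternative left out its 8 calls in the control library and the 26 highest scores in the Nrp1L/L library; 1 member of each was among them. Genes named in the text were the 12 leading calls in each direction, list members with most UMIs or called, the 10 genes most different from CD8 T cells in each direction, the 12 most variable and the 15 most abundant; the leading calls without the richest cells, and some list members with small differences, were added after their values were seen. With no replicates, no p-value was computed. Coordinates are from GENCODE M21. Some named genes are not reported here.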

Additional observations from a re-analysis of the deposited data

Results flagged for a closer look

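Hspa1a, an inducible heat shock gene, differed in opposite directions in the 2 gated lymphocyte classes. Its log2 ratio of Nrp1L/L over control was -1.09 in NK cells (140 and 65.5 CPM) and 3.12 in CD8 T cells (22.2 and 192 CPM). Only 14 of 75 control and 11 of 188 Nrp1L/L NK cells had an Hspa1a UMI. A single cell held 27 of the 64 control UMIs, and another 22 of the 56 Nrp1L/L UMIs. Lgals3, which encodes galectin-3, had a log2 ratio of -0.75 in NK cells (362 and 215 CPM) and 1.02 in CD8 T cells (583 and 1181 CPM). In both cases the difference between the classes was not tested, because each genotype had 1 library. In all, 6 genes had opposite calls in the 2 classes, and the 2 shown kept them with the richest cells left out. Hspa1a shares sequence with its near copy Hspa1b, and Lgals3 is also a macrophage gene.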

How the results depend on the processing

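No paired analysis was possible because each genotype had 1 library. Over 17 settings, 210 of 231 summary values were counted as unchanged and 21 as moved. Values counted as unchanged could still differ in size. With levels thinned, the Ifng log2 ratio was 0.44, beside 0.80, and the glycolysis median was -0.22, beside -0.50. Of 962 values of 61 named genes, 44 lost their call, 12 gained one in the reported direction, 5 gained one in the opposite direction and 901 did none of these. The 5 were Jun (-0.71 with a gate sum of 1) and Gzmc, at -2.21 with thinning before gating, -0.69 with levels thinned, -0.65 as a mean of each cell's CPM and -4.19 without the richest cells. Genes called higher numbered 401 with at least 50 UMIs, 431 at 2-fold, 340 with cells thinned to 2500 UMIs and then gated, 328 with levels thinned, and 309 with the richest cells of each gene left out. Genes called lower numbered 184, 195, 174 and 163 in the first 4 of these settings and 565 with at least 1 UMI. The Ifng log2 ratio was 0.36 with thinning before gating and 0.29 with no C1q and at most 2 MHC class II UMIs. The NK share of Ifng UMIs was 22.6% in control and 13.5% in Nrp1L/L with thinning before gating, and in Nrp1L/L 6% with a CD3 sum of 0 and 5.91% with the C1q and MHC class II limits. Admitting a gate sum of 1 gave medians of 0.56 for type I interferon and 0.52 for conventional NK identity genes. The oxidative phosphorylation median was -0.24 with TMM, -0.27 with median-of-ratios scaling and -0.22 without the richest cells. Leaving out the richest cells, and leaving out the Lyz2-rich cell, were chosen after seeing the data. Fewer UMIs or cells enter the thinned settings by construction; for the others the cause was not tested. Genes with few UMIs, such as Prf1, Pdcd1 and Klrg1, are limited by depth.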

Other observations

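Some cell cycle genes outside the rule were detected in these non-cycling NK cells. Of 25 measured, Pcna, Cenpa, Rrm2 and Mcm4 were called higher in Nrp1L/L NK cells and Ccnb2 lower, with a median log2 ratio of 0.16. These shares were 16% and 4%, beside 12.1% and 6.14% of all genes measured. Pcna, the replication clamp, stood at 56.7 and 118 CPM (log2 1.06) with a UMI in 19 of 75 and 46 of 188 cells. Mcm4, a helicase subunit, had 4 and 29 UMIs. Cenpa was not called with TMM scaling, and with the richest cells left out Pcna and Cenpa were called higher and Stmn1 lower.

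Of 15 measured migration and adhesion genes, 2 were called higher (13.3%, beside 12.1% of all genes) and 0 lower, with a median of 0.16. They were Ccr2, the receptor by which cells follow Ccl2, at 301 and 475 CPM (log2 0.66), and the integrin chain gene Itgb7, at 133 and 201 CPM (0.60). Neither was called with TMM scaling, nor with the richest cells left out, where Itgal was called lower. Of 23 measured conventional NK identity genes, Gzma, Klra9, Klra7 and the Tec family kinase gene Txk were called higher and Prf1 and Osbpl3 lower, with a median of 0.34. These shares were 17.4% and 8.7%, beside 12.1% and 6.14% of all genes measured. Txk was not called with TMM or median-of-ratios scaling.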
